A study of Mus musculus with 58 samples.

Results

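The protein subunits of the mitochondrial ribosome are encoded in the nucleus, and their genes were taken as every gene whose symbol is Mrpl or Mrps followed by a number. This gave 74 of the 20177 genes counted in the SLAM-seq and Quant-seq libraries, 46 of the large subunit (Mrpl) and 28 of the small subunit (Mrps), spread over 17 chromosomes of the GRCm38 mouse genome. All of them are annotated as protein coding. A further 9 annotated symbols of this form, the genes Mrpl24, Mrpl49, Mrpl53 and Mrps25 and 5 pseudogenes, were not analysed here.

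All libraries were made from E14 mouse embryonic stem (mES) cells of the 129/Ola background. SLAM-seq was done in 3 lines: DPY30–mAID cells, in which auxin triggers degradation of DPY30 through the OsTIR1 transgene, RBBP5–FKBP cells, a clonal line in which dTAG-13 triggers degradation of RBBP5, and DPY30–mAID cells from which Kdm5a and Kdm5b were deleted (Kdm5a/b dKO), treated with auxin. The DPY30–mAID and RBBP5–FKBP cells were sampled at 0, 2, 8 and 24 h with 3 libraries per time, and the dKO cells at 0, 2, 4, 8, 24 and 48 h with 2 libraries per time. Before lysis the cells were given 100 µM 4-thiouridine (4SU) for 60 min, and a newly made transcript then shows T>C mismatches in its reads. Quant-seq, without 4SU, followed DPY30–mAID cells in 1 µM retinoic acid (RA) without LIF, with DMSO or auxin at 8 h and at day 1, 2, 4 and 6, with a DMSO group at 0 h. Each of these groups had 2 libraries. Those of DMSO at day 6 did not differ in any count and entered as 1. The labels do not say which dKO clone a library came from. All of these cells carry a degron, so none is an unmodified E14 culture, and the study calls the SLAM-seq replicates biological. The labels do not say whether replicates were separate cultures, so p-values measure the spread between libraries.

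Mitochondrial ribosomes translate the small set of proteins encoded by mitochondrial DNA, all of them subunits of the respiratory chain or of ATP synthase. Their rRNA is made inside the organelle, whereas every protein subunit is made in the cytosol and imported. The large subunit holds the peptidyl transferase centre and the exit tunnel, and the small subunit decodes the mRNA. DPY30 and RBBP5 are core subunits of the SET1/COMPASS and MLL complexes that place H3K4me3 at the start of active genes, and KDM5A and KDM5B remove this mark.

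SLAM-seq libraries of the degron lines held 1721185 to 2852331 reads, those of the dKO cells 5931269 to 7792404 and Quant-seq libraries 1264241 to 2543632. DPY30 and RBBP5 are removed as proteins, so their transcripts check no label. In the dKO cells Kdm5b lay between 109 and 151 CPM (counts scaled to the reads of the library) and Kdm5a between 26.0 and 40.7, against 389 to 946 and 61.1 to 144 in the other SLAM-seq lines. All 8 mES cell markers were detected in every line, with a summed level of 5980 to 9438 CPM over the SLAM-seq libraries. One DPY30–mAID library stood apart. At 8 h of auxin the share of T>C reads over all genes was 13.0%, 9.82% and 5.51% in replicates 1, 2 and 3. The main edgeR count and median of the members in T>C reads at that time are given with and without replicate 3. Other values at that time include it unless stated. For 13 members more than 20% of reads mapped to more than 1 place in the genome, most of all Mrps21 (99.97%), Mrps18b and Mrps36 (99.6% each) and Mrpl23 (96.9%), and their values are uncertain. For 46 members the share was under 5%, and no member shared a counted interval with another gene.

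At 0 h the members were expressed at moderate levels, and their transcripts carried fewer T>C reads than those of most genes. Mrpl18 had the highest level, with a mean over the 3 lines of 410 CPM, followed by Mrpl45 (265 CPM), Mrpl34 (213 CPM), Mrps18b (205 CPM), Mrpl15 (184 CPM) and Mrpl21 (176 CPM). Reads came from 3′ ends, so a level is reads per library and needs no correction for gene length, but efficiency of capture can still differ between genes. MRPL45 sits at the tunnel exit and helps to hold the ribosome at the inner membrane. Its level was 244, 250 and 266 CPM in DPY30–mAID cells, 397, 357 and 332 CPM in RBBP5–FKBP cells and 197 and 161 CPM in dKO cells, in groups that did not overlap. Mrpl21 was higher in dKO cells (318 and 293 CPM) than in the 6 degron-line libraries, which ranged from 88.6 to 141 CPM. Mrps34 was close to absent from the counted interval, with a mean of 0.547 CPM, and was not tested.

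A mean of 100 reads or more at 0 h in each line was reached by 56 members and by 3721 genes in all. The median share of T>C reads among these members was 12.8% in DPY30–mAID, 7.40% in RBBP5–FKBP and 3.82% in dKO cells, beside 17.5%, 10.1% and 5.00% over all genes. By the mean over the lines, 39 of the 56 members lay below the median gene. The cytosolic ribosomal protein genes had shares of 5.31%, 3.00% and 1.98% in the same order, and the nuclear genes of the respiratory chain 5.51%, 3.51% and 2.20%, so the median member lay between those groups and the median gene. Reads of the members covered fewer T positions, a median of 16.8, 17.0 and 10.5 per read against 19.9, 19.8 and 12.2. The conversions per covered T were still lower, at 0.892%, 0.468% and 0.414% for the members and 1.10%, 0.593% and 0.472% for all genes. These are descriptions of 3 groups of libraries, with no test.

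The spread among members was wide. Among these 56, Mrps2, Mrpl50 and Mrpl44 carried the most label and Mrpl23, Mrpl21 and Mrps21 the least. MRPL44 has a fold like that of ribonuclease III, and its transcript held T>C in 50.5%, 49.3% and 41.2% of reads in DPY30–mAID cells and 19.2% and 15.7% in dKO cells. In RBBP5–FKBP cells the values were 18.5%, 18.5% and 0.901%, so that replicate 3 was far below the others. Mrps2, a small-subunit gene, had 33.5%, 41.1% and 34.4%, then 16.8%, 18.0% and 17.6%, and 12.3% in both dKO libraries. The abundant Mrpl21 stayed at 6.85%, 1.17% and 6.91% in DPY30–mAID cells and at 1.25% to 3.98% in the other libraries. In the unlabelled Quant-seq libraries the median member had 0.223% T>C reads and the median gene 0.199%. Mrpl19 (6.82%), Mrps12 (6.17%), Mrps27 (3.84%), Mrpl3 (3.11%), Mrps35 (2.99%), Mrps7 (2.30%) and Mrpl41 (2.06%) had more without any label, and their labelled shares hold this background. In dKO cells at 0 h Mrpl19 (5.36%) and Mrps27 (2.49%) lay below it and Mrps12 (6.77%) close to it. There Mrpl3, Mrps35, Mrps7 and Mrpl41 lay above it.

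**Figure D1:**
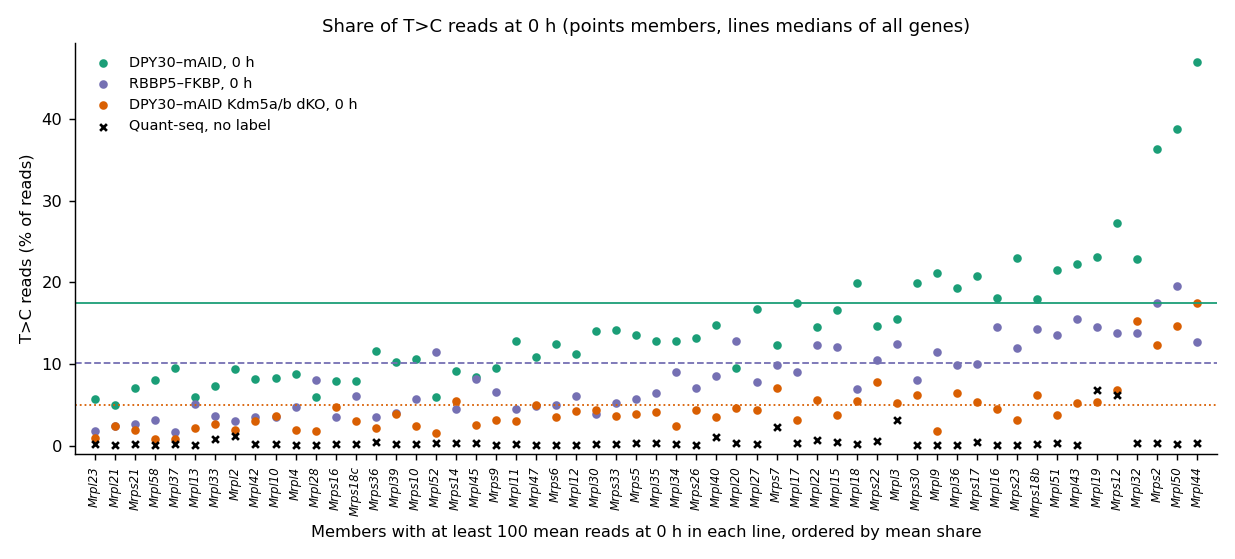
Share of T>C reads (y axis, % of reads) at 0 h for the 56 members whose mean reached 100 reads in each line, ordered along the x axis by the mean of the 3 lines. Points are group means of DPY30–mAID, RBBP5–FKBP and Kdm5a/b dKO cells, crosses are the unlabelled Quant-seq libraries and horizontal lines are the medians of all 3721 genes (17.5%, 10.1% and 5.00%), below which most members lie.

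The total reads of a gene, labelled or not, follow the amount of its RNA. In DPY30–mAID cells these rose over many members at 24 h of auxin, in both subunits. The summed level of the members was 6421, 6284 and 6219 CPM at 0 h, 6559, 6490.3 and 6710.2 CPM at 2 h, 6934, 7049.6 and 6792 CPM at 8 h and 7788, 8592 and 8474 CPM at 24 h. Every library of 2 h, of 8 h and of 24 h thus lay above every one of 0 h. In the edgeR fit, described below, the median log2 fold change over the members stayed close to no change at 2 and 8 h. The higher sums at these 2 times were thus not matched by a shift of the median member. CPM is a share of the reads of a library, and in bulk libraries a change in RNA per cell cannot be told apart from a change in the mix of cells.

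edgeR's quasi-likelihood test, with p-values adjusted over all 9848 genes tested, called 33 of 73 members higher and 0 lower at 24 h (adjusted p below 0.05). At an unadjusted p under 0.05, 1 member (Mrpl39) was lower and 41 higher, and DESeq2 called 34, all higher. Of all genes, 15.9% were called higher and 17.1% lower. The median log2 fold change was 0.43 over the members and 0.01 over all genes, and 63 members had a positive and 10 a negative value. By subunit, 21 of 46 genes of the large and 12 of 27 of the small subunit rose, with medians of 0.42 and 0.43. Of the 60 members with at most 20% multiply mapped reads, 28 rose. Without 1 library in turn, 22 to 38 members were called. The marker genes of mES cells moved at the same time in both directions, with 3 of 8 lower and 2 higher and a summed level of 8621 to 9438 CPM at 0 h and 8036 to 8590 CPM at 24 h. The 6 markers of RA response and differentiation, 3 of them at 0, went from 64.5 to 77.6 CPM at 0 h to 26.1 to 39.1 CPM at 24 h in sum. The part of these markers in the result was not tested.

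**Figure D2:**
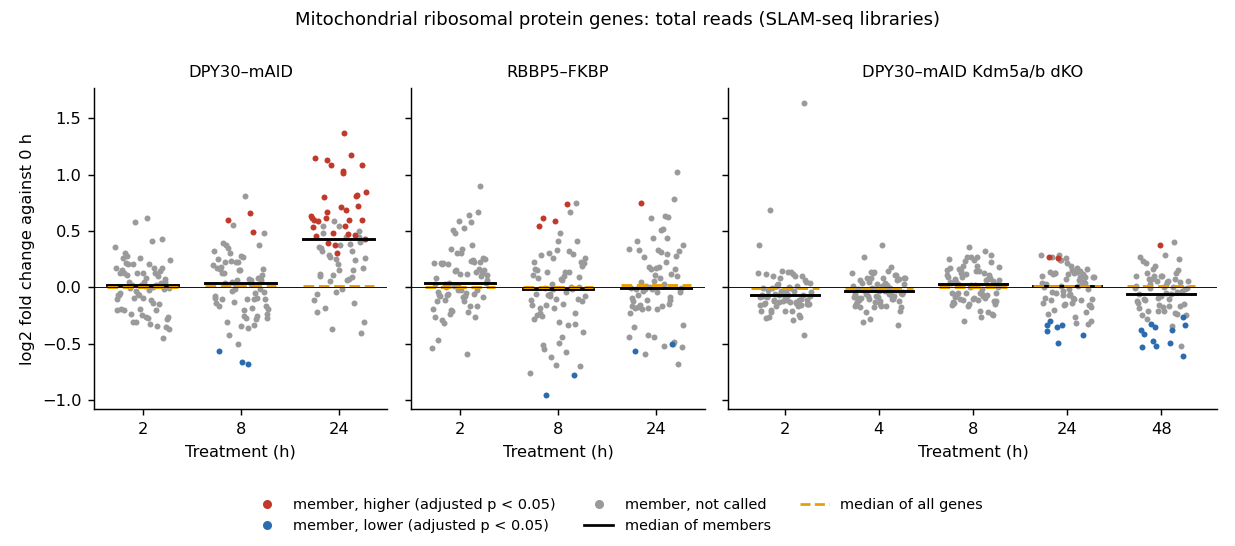
Log2 fold change of total reads against 0 h (y axis) for each member (points) by hours of treatment (x axis) in the 3 lines; red and blue points passed an adjusted p below 0.05, solid lines are medians of the members and dashed lines medians of all genes. In DPY30–mAID cells at 24 h 33 members are red and the median is 0.43, and the medians at the other times and lines lie between -0.07 and 0.04.

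Mrps17, of the small subunit, had the smallest p at that time. Its level was 75.2, 71.6 and 72.4 CPM at 0 h, 97.2, 130.2 and 104 CPM at 8 h and 148, 149.8 and 198 CPM at 24 h. Libraries of the 3 times did not overlap, and the log2 fold change at 24 h was 1.17 ± 0.16 (SE, edgeR adjusted p = 1.12e-07). Mrpl32, whose product is cut by the m-AAA protease of the inner membrane before it joins the large subunit, went from 58.6, 61.6 and 67.7 CPM to 152, 129 and 134 CPM. Its log2 fold change was 1.13 ± 0.17 (edgeR adjusted p = 6.64e-07). Mrpl18 went from 286, 361 and 296 CPM to 452, 515 and 465 CPM, a log2 fold change of 0.59 ± 0.11 (edgeR adjusted p = 2.59e-05). Mrps23 went from 124, 100.5 and 108 CPM to 144, 226 and 218 CPM (0.82 ± 0.16 on the log2 scale, edgeR adjusted p = 4.07e-05). These 4 kept their call without any 1 library. The largest log2 fold change was that of Mrpl57, at 1.37 ± 0.30, which went from 15.6, 23.9 and 16.7 CPM to 46.5, 47.5 and 53.3 CPM and was singled out after its values were seen.

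The 33 members called higher differed little at 0 h from the 40 tested members that were not called. Their median level was 73.3 CPM against 74.3 CPM, their median T>C share 12.3% against 12.9%, and 5 of them against 8 of the others had more than 20% multiply mapped reads. The log2 fold changes of the 33 ran from 0.31 to 1.37 with a median of 0.63. Those of the 40 not called ran from -0.40 to 0.59 with a median of 0.19, so many of these rose too. Among the members not called, Mrps31 had the lowest value (-0.40 ± 0.28) and Mrpl39 the next (-0.37 ± 0.18).

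At earlier times few members changed in DPY30–mAID cells. At 2 h edgeR called 0 members in total reads, DESeq2 called 0, and 3 had an unadjusted p under 0.05, all higher. At 8 h, 3 members were lower, Mrpl50 (log2 fold change -0.66), Mrps10 (-0.68) and Mrpl16 (-0.56), and 3 were higher, Mrps12 (0.66), Mrpl32 (0.59) and Mrps17 (0.50). These counts are no larger than the background, since 7.61% of all genes were lower and 5.38% higher. Each of these calls but that of Mrpl50 was lost without 1 or more single libraries, and the number called fell to 2 without the 0 h replicate 1 and to 3 without the 8 h replicate 2 or replicate 3.

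In RBBP5–FKBP cells the summed level was 6975, 6420.4 and 6425 CPM at 0 h and 6320.3, 6677 and 6784 CPM at 24 h, so the groups overlapped. At 2 h edgeR and DESeq2 called 0 members, and 2 had an unadjusted p under 0.05 as lower and 5 as higher. At 8 h, 2 members were lower, Mrps21 (-0.77) and Mrpl33 (-0.95), and 4 were higher, Mrps12 (0.74), Mrpl28 (0.62), Mrpl43 (0.59) and Mrpl2 (0.55), beside 5.12% and 4.13% of all genes. At 24 h Mrpl18 (-0.56) and Mrps21 (-0.50) were lower and Mrpl28 (0.75) was higher, beside 4.49% and 2.99% of all genes, and the median log2 fold change was -0.00. The call of Mrpl18 at 24 h was lost when replicate 1 or replicate 3 of either time was left out. The number called at 24 h fell to 0 without the 24 h replicate 3 and to 1 without the 24 h replicate 1 or the 0 h replicate 2. It was larger with a filter at a mean of 1 read, as given in the last section. The number at 8 h fell to 2 without the 0 h replicate 2 and to 3 without the 0 h replicate 3 or the 8 h replicate 1. Nearly all reads of Mrps21 mapped to several places.

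In dKO cells the summed level was 7511 and 7377 CPM at 0 h, 7203 and 7049 CPM at 2 h, 7253 and 7418 CPM at 4 h, 7607 and 7780.2 CPM at 8 h, 7613 and 7601 CPM at 24 h and 7452 and 7277 CPM at 48 h, so that both libraries of 2 h lay below those of 0 h, the ranges of 4 h and 48 h overlapped that of 0 h, and both of 8 h and of 24 h lay above. The mES cell markers were at 7093 to 7357 CPM at 0 h, 5980 to 6042 CPM at 24 h and 6242 to 6335 CPM at 48 h in these libraries, and their part in the total and T>C results was not tested. edgeR and DESeq2 called 0 members at 2, 4 and 8 h. The members with an unadjusted p under 0.05 were 12 lower and 3 higher at 2 h, 5 and 1 at 4 h, and 3 and 10 at 8 h. At 24 h 7 members were lower and 2 higher, beside 6.44% and 5.05% of all genes. At 48 h 12 were lower and 1 was higher, beside 7.84% and 6.72% of all genes. Mrpl18, among the members whose reads often map to several places, led the lower ones, from 509.8 and 516 CPM at 0 h to 400.1 and 421 CPM at 24 h and 377 and 376 CPM at 48 h, with log2 fold changes of -0.38 ± 0.06 and -0.53 ± 0.06 (edgeR adjusted p = 0.000538 and 2.22e-05). Mrpl40 (-0.33 and -0.52), Mrpl36 (-0.50 and -0.48), Mrpl34 (-0.35 and -0.32), Mrpl17 (-0.33 and -0.38) and Mrpl20 (-0.30 and -0.42) were lower at both times. The higher ones were Mrpl35 (0.26) and Mrpl2 (0.27) at 24 h and Mrpl45 (0.38) at 48 h. The number called at 24 h was 4 without the 0 h replicate 1, 3 without the 24 h replicate 1 and 1 without the 24 h replicate 2, and that at 48 h was 6 without the 0 h replicate 2.

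**Figure D3:**
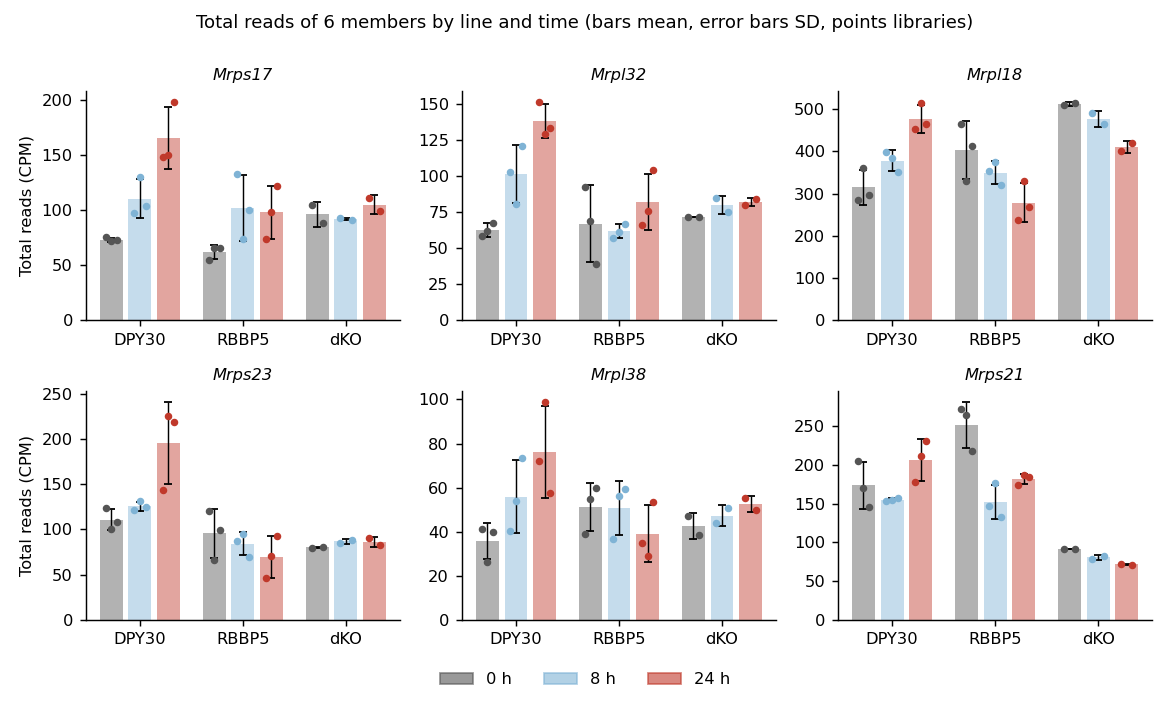
Total reads (y axis, CPM) of Mrps17, Mrpl32, Mrpl18, Mrps23, Mrpl38 and Mrps21 at 0, 8 and 24 h in DPY30–mAID (DPY30), RBBP5–FKBP (RBBP5) and Kdm5a/b dKO (dKO) cells; bars are means, error bars SD and points libraries (3, 3 and 2 per bar). For the first 5 of these genes every DPY30–mAID library of 24 h lies above every one of 0 h.

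A member called in one line and not in another need not differ between them, so the difference of the 24 h effects was tested as an interaction, a comparison added after the data were seen. RBBP5–FKBP minus DPY30–mAID was lower for 15 members and higher for 0 in edgeR, beside 6.06% of all 10196 genes called lower, and the median over the members was -0.39. Kdm5a/b dKO minus DPY30–mAID was lower for 22 and higher for 0, beside 7.81% of 11483 genes, with a median of -0.41. The RA response and differentiation markers went from 45.3–62.8 CPM at 0 h to 63.1–90.8 CPM at 24 h in RBBP5–FKBP cells, from 64.5–77.6 to 26.1–39.1 CPM in DPY30–mAID cells and from 38.6–45.2 to 36.5–41.7 CPM in dKO cells, and their part in these differences was not tested. At an unadjusted p under 0.05 these were 22 and 34 lower and 0 higher, and DESeq2 called 15 and 28, all lower. At 8 h edgeR called 0 members in either difference, whereas at an unadjusted p under 0.05 there were 6 lower and 2 higher for RBBP5–FKBP and 6 lower and 5 higher for the dKO cells, of which DESeq2 called 0 and 2. The sizes at 24 h depend on single libraries. The first count was 8 without the DPY30–mAID 24 h replicate 2 or replicate 3 and 7 without the RBBP5–FKBP 24 h replicate 1. The second was 14 without the dKO 0 h replicate 2 or 24 h replicate 1 and 13 without the dKO 24 h replicate 2.

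Mrpl18 had the smallest p for both differences, although 31.3% of its reads mapped to several places, so its counts are uncertain. It rose in DPY30–mAID cells, as given above, but in RBBP5–FKBP cells went from 466, 329.9 and 412 CPM to 237, 329 and 268 CPM, and the difference of the effects was -1.17 ± 0.19 (edgeR adjusted p = 2.34e-05). Against the dKO cells it was -0.95 ± 0.13 (edgeR adjusted p = 4.5e-06). Mrps23 differed by -1.32 ± 0.29 in RBBP5–FKBP cells, where it was 121, 66.6 and 99.9 CPM at 0 h and 46.1, 70.8 and 92.5 CPM at 24 h. Mrpl33 (-1.27 ± 0.30) and Mrpl38 (-1.52 ± 0.36) differed in the same direction. In the dKO cells Mrps17 stayed at 104 and 87.8 CPM and then 111 and 98.8 CPM, a difference from DPY30–mAID cells of -1.09 ± 0.21 (edgeR adjusted p = 0.000449), and Mrpl32 differed by -0.98 ± 0.20 (edgeR adjusted p = 0.000784). The difference for Mrps17 in RBBP5–FKBP cells was -0.56 ± 0.28 and did not pass (edgeR adjusted p = 0.198). Of the 33 members that rose in DPY30–mAID cells, 1 was higher and 1 lower in RBBP5–FKBP cells at 24 h (median -0.01), and 0 were higher and 2 lower in dKO cells (median 0.05).

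The promoters of 5 of these genes are given to show what the members that moved together, or against each other, have upstream. They were taken from RefSeq on GRCm38.p6, which held 71 promoters of 65 members, and are the 250 bases before the start site, printed 5′ to 3′ on the strand of the gene. Capitals mark letters that were searched on both strands, and matches can overlap. CCGGAAG is the core of sites for ETS factors such as GABP. The letters GCGCATG are part of the motif of NRF1, a regulator of nuclear genes for mitochondria. AAGATGGC is the core of the motif of YY1, which is common at ribosomal protein genes. An E-box was searched as CACGTG, and a TATA box, as the classical element of core promoters is called, as TATAAA. Mrps17 (chr5:129715247-129715496, plus strand) and Mrpl32 (chr13:14613038-14613287, minus strand) rose most clearly in DPY30–mAID cells. Mrpl18 (chr17:12916092-12916341, minus strand) moved in opposite directions between lines. Mrpl36 (chr13:73330759-73331008, plus strand) and Mrps2 (chr2:28467816-28468065, plus strand) fell early in RA, as described further on.
Mrps17: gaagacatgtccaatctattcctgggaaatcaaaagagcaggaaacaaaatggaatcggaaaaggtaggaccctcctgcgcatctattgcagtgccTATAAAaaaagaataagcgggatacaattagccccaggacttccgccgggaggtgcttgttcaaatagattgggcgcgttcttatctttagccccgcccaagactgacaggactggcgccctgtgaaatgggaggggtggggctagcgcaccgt
Mrpl32: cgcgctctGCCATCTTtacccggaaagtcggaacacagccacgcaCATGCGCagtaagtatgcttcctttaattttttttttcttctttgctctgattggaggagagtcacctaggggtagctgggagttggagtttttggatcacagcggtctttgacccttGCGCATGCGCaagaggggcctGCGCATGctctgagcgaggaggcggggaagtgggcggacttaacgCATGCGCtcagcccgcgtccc
Mrpl18: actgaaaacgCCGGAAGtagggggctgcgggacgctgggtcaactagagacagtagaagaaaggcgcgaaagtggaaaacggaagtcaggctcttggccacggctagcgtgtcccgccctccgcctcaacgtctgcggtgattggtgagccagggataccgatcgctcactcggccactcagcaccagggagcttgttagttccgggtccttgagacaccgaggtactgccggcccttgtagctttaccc
Mrpl36: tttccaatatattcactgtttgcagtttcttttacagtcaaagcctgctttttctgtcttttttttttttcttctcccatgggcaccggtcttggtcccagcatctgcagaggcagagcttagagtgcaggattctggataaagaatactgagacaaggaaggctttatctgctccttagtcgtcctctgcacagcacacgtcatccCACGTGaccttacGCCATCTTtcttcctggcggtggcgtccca
Mrps2: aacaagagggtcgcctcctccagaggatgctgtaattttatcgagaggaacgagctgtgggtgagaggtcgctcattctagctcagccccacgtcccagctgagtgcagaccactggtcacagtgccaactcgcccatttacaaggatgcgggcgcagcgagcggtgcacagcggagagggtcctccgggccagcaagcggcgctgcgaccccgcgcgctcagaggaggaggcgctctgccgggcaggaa

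The 5 windows had little in common. Mrpl32 held NRF1 letters starting 205, 87, 84, 66 and 21 bases before the start and YY1 letters at 242 bases. Mrpl18 held an ETS core at 240 bases, Mrps17 the TATA letters at 154 bases, Mrpl36 an E-box at 43 bases beside YY1 letters at 30 bases, and Mrps2 no match. Over the whole family, in windows that run 50 bases further into the transcript, the ETS core was found for 25 of 65 members (38.5%), against 9.93% of 27025 genes. YY1 letters were found for 11 members (16.9%, all genes 3.19%) and NRF1 letters for 8 (12.3%, all genes 4.41%). E-boxes were found for 5 members (7.69%, all genes 8.09%), and TATA letters for 5 (7.69%, all genes 15.7%). Any of the first 3 was present for 36 members (55.4%) and for 15.9% of all genes. The ETS core was found for 39.6% of cytosolic ribosomal protein genes and 22.4% of respiratory chain genes, and NRF1 letters for 13.2% and 17.9%. The differences between these groups of genes were not tested. A match is a run of letters and not a bound site.

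T>C reads, which follow RNA made during the 60 min of labelling, were lower for some members at 8 h in DPY30–mAID cells and at the last times in the other lines, beside falls over all genes at the same times. The fits took total reads as library sizes, so a change shared by all genes is kept. When the libraries were scaled on T>C reads instead, the median of the members moved from -0.87 to -0.21 in DPY30–mAID cells at 8 h, from -0.68 to -0.00 in RBBP5–FKBP cells at 24 h, and from -0.76 to -0.03 at 24 h and -1.30 to -0.12 at 48 h in dKO cells. In DPY30–mAID cells at 24 h it moved from 0.26 to 0.36. With that scaling 2 members were lower in DPY30–mAID cells at 8 h, beside 4.54% of genes, 1 was higher in RBBP5–FKBP cells at 24 h, beside 0.378%, and 2 and 3 were lower in dKO cells at 24 and 48 h, beside 3.72% and 5.05%. The counts below are relative to all RNA in the library. Of the 74 members, 62 in the DPY30–mAID and dKO cells and 50 in RBBP5–FKBP cells had enough T>C reads to be tested.

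In DPY30–mAID cells the summed level of T>C reads was 947, 907 and 922 CPM at 0 h, 760.2, 607 and 307 CPM at 8 h and 1131, 1189.6 and 1089.7 CPM at 24 h. All 8 h libraries were thus below, and all 24 h libraries above, those of 0 h. At 2 h edgeR and DESeq2 called 0 members, and 0 had an unadjusted p under 0.05 in either direction. At 8 h 7 members were lower, 6 of them by more than 1 on the log2 scale, and 0 higher, with 24 and 0 at an unadjusted p under 0.05. The background was 16.1% of 6317 genes, and the medians were -0.87 for the members and -0.71 for all genes. DESeq2 called 14. The mES cell markers were at 7302 to 7727 CPM at 8 h against 8621 to 9438 CPM at 0 h, and their part was not tested. Without the replicate 3 that stands apart, 5 members were lower and the median was -0.52. The share and median of all genes without this library are not given, so these values stand without a background. Without the 8 h replicate 1 there were 20, without the 0 h replicate 1 or 2 there were 4, and without the 0 h replicate 3 there were 3. At 24 h edgeR and DESeq2 called 0, 1 member was lower and 6 higher at an unadjusted p under 0.05, and the median was 0.26 against -0.14 over all genes. With libraries scaled on T>C reads, 6 of 62 were called, all higher, beside 6.78% of genes called higher.

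The 7 lower members at 8 h were Mrpl17, Mrpl16, Mrps2, Mrpl3, Mrpl50, Mrpl39 and Mrpl18. Mrpl17, of the large subunit, had 34.7, 39.5 and 38.8 T>C CPM at 0 h and 19.2, 11.6 and 8.20 T>C CPM at 8 h, in groups that did not overlap (log2 fold change -1.63 ± 0.39, edgeR adjusted p = 0.0033). Mrpl16 went from 18.1, 14.6 and 17.0 to 6.39, 4.84 and 1.82 T>C CPM (-2.01 ± 0.50, edgeR adjusted p = 0.00486). Mrps2, one of the most heavily labelled members, went from 42.0, 61.3 and 65.2 to 31.1, 29.5 and 17.3 T>C CPM (-1.21 ± 0.34, edgeR adjusted p = 0.0117), a call lost without the 0 h replicate 2 or replicate 3. Without the 8 h replicate 3 the log2 fold changes were -1.38 for Mrpl17, -1.64 for Mrpl16, -0.99 for Mrps2 and -1.70 for Mrpl3, and the calls stood. For Mrpl3 (-1.84 ± 0.52) the call was lost without the 0 h replicate 3 or the 8 h replicate 2. The other 3 were Mrpl50 (-1.22 ± 0.35), Mrpl39 (-2.11 ± 0.70) and Mrpl18 (-0.99 ± 0.33). Mrpl39 had only 13, 1 and 2 T>C reads at 8 h. For Mrpl32 and Mrps17, whose total reads rose most clearly, only replicate 3 of 8 h lay below every 0 h library. Mrpl32 had 16.1, 13.5 and 13.0 T>C CPM at 0 h, 22.6, 14.5 and 4.10 at 8 h and 35.3, 30.1 and 29.1 at 24 h, and Mrps17 had 17.6, 13.9 and 14.1, then 14.9, 18.9 and 6.38, then 27.3, 28.1 and 23.0. Neither passed the test in T>C reads at 24 h (log2 fold changes 1.13 ± 0.43 and 0.77 ± 0.42, edgeR adjusted p = 0.13 and 0.311).

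In RBBP5–FKBP cells the summed T>C level went from 574, 497 and 484 CPM at 0 h to 317, 343 and 347 CPM at 24 h. At 2 and 8 h edgeR and DESeq2 called 0 members, with 4 lower and 1 higher and then 3 lower and 0 higher at an unadjusted p under 0.05, and a median of -0.39 at 8 h. At 24 h 5 members were lower and 1 was higher, beside 25.9% and 0.189% of 4761 genes, and the medians were -0.68 for the members and -0.91 for all genes. Of the called members Mrps23 fell furthest, from 18.0, 9.82 and 6.17 to 3.10, 0.466 and 1.45 T>C CPM (-2.73 ± 0.69, edgeR adjusted p = 0.0018). These were 39, 28 and 17 T>C reads at 0 h and only 7, 1 and 3 at 24 h, so the size of the fall is uncertain. Mrpl16 (-1.80), Mrps18b (-1.31), Mrpl34 (-1.28) and Mrpl45 (-1.25) were the other lower members. The higher one was Mrpl2, close to the peptidyl transferase centre, with 2.31, 4.21 and 3.27 T>C CPM at 0 h and 14.6, 10.7 and 10.6 at 24 h (1.81 ± 0.59, edgeR adjusted p = 0.0167). Without the 0 h replicate 1, 3 members were called, and the calls of Mrpl2, Mrpl16, Mrpl34 and Mrpl45 were among those lost.

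In dKO cells the summed T>C level was 316 and 340.2 CPM at 0 h, 191 and 202 CPM at 24 h and 134 and 139 CPM at 48 h. edgeR and DESeq2 called 0 members at 2, 4 and 8 h, where 4, 6 and 5 had an unadjusted p under 0.05, all lower. At 24 h 24 of 62 members were lower, 15 of them by more than 1 on the log2 scale, beside 43.0% of 5965 genes, and at 48 h 42 were lower, 38 by more than 1, beside 72.2%. The medians were -0.76 and -1.30 for the members and -0.80 and -1.29 for all genes, and by subunit 27 of 40 large and 15 of 22 small members were lower at 48 h. These shares are near or under the background. Mrpl18 had 25.4 and 30.7 T>C CPM at 0 h, 13.7 and 18.2 at 24 h and 11.3 and 10.3 at 48 h (-0.89 ± 0.19 and -1.47 ± 0.20, edgeR adjusted p = 0.000128 and 1.06e-09). Mrpl36 had 5.74 and 4.88 T>C CPM, then 0.431 and 1.06, then 0.305 and 1.19 (-2.87 ± 0.50 at both times), and Mrps16 had 7.65 and 7.96, then 1.01 and 2.42, then 1.83 and 1.49 (-2.25 ± 0.36 and -2.31 ± 0.36). For Mrpl36 these were 39 and 38 T>C reads at 0 h, 3 and 7 at 24 h and 2 and 8 at 48 h, close to the floor. DESeq2 called 13 members at 24 h and 37 at 48 h, and with libraries scaled on T>C reads 2 and 3 were called. At 24 h 13 were called without the 0 h replicate 2 or the 24 h replicate 2, and 14 without the 24 h replicate 1.

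**Figure D4:**
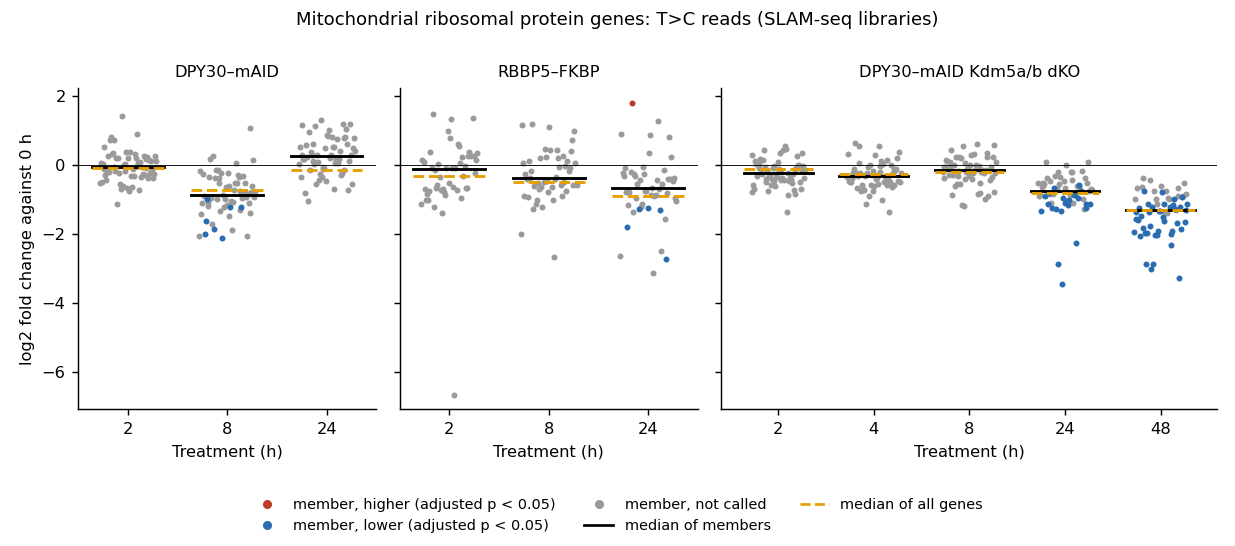
Log2 fold change of T>C reads against 0 h (y axis) for each member tested (points) by hours of treatment (x axis) in the 3 lines; blue and red points passed an adjusted p below 0.05, solid lines are medians of the members and dashed lines medians of all genes. In dKO cells the members follow the other genes down to -1.30 at 48 h, whereas in DPY30–mAID cells they return to 0.26 at 24 h.

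The share of T>C reads among a gene's own reads takes changes of its total out. In DPY30–mAID cells 8 members had a lower share at 8 h (median log2 ratio of odds -1.01), beside 7.58% of genes, and 0 at 2 and 24 h. The 8 were Mrpl17, Mrpl18, Mrpl39, Mrpl51, Mrpl27, Mrpl15, Mrps2 and Mrpl3. limma called 0 at each of these times, and at an unadjusted p under 0.05 edgeR had 3 lower and 1 higher at 24 h. With a filter at a mean of 1 read edgeR called fewer members at 8 h, as given in the last section. Without 1 library the 8 h count ran from 0, without the 0 h replicate 2 or 3, to 20, without the 8 h replicate 1, and it was 1 without the 0 h replicate 1 and 3 without the 8 h replicate 3. In RBBP5–FKBP cells edgeR and limma called 0 at 2 and 8 h (4 and 5 lower and 2 and 0 higher at an unadjusted p under 0.05). At 24 h Mrpl34, Mrpl52, Mrps23, Mrps18b and Mrpl43 were lower, beside 22.7% of genes, with a median of -0.72. The count was 1 without the 0 h replicate 1 and 3 without the 0 h replicate 2. In dKO cells 0 were called at 2, 4 and 8 h by either tool (5, 8 and 6 lower and 0, 1 and 0 higher at an unadjusted p under 0.05). At 24 h 29 were lower, beside 48.0% of genes, and at 48 h 42, beside 77.0%, with medians of -0.83 and -1.29. limma called 20 and 43 at these times, and 3 at 24 h for RBBP5–FKBP. With a replicate block limma called 16 for dKO and 1 for RBBP5–FKBP at 24 h. Without the dKO 0 h replicate 2, the 24 h replicate 1 or the 24 h replicate 2 the 24 h count was 12, 14 or 17.

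The 24 h effects on T>C reads differed between lines for few members, at shares near or under those of all genes where lower. RBBP5–FKBP minus DPY30–mAID was lower for Mrps23 (-3.52 ± 0.71), Mrps22 (-2.76 ± 0.80), Mrpl20 (-2.32 ± 0.74) and Mrpl45 (-2.16 ± 0.56), beside 8.21% of genes, and higher for Mrpl2 (2.83 ± 0.83), beside 0.281%. MRPS22 is a small-subunit protein in which mutations cause mitochondrial disease in humans. Mrps22 had 13.2, 9.62 and 11.2 T>C CPM at 0 h and 22.5, 30.1 and 25.8 at 24 h in DPY30–mAID cells, but 4.62, 9.82 and 12.7 and then 0.443, 2.33 and 6.75 in RBBP5–FKBP cells. The last 3 values rest on 1, 5 and 14 T>C reads. The dKO minus DPY30–mAID difference was lower for Mrpl20 (-2.07 ± 0.58) and Mrpl18 (-1.46 ± 0.42), beside 2.38% of genes. Of the members 64 and 67 were tested. With libraries scaled on T>C reads the counts were 2 and 0, DESeq2 called 8 and 9, and a filter at a mean of 1 read left 0 in the dKO difference. The medians were -0.94 and -0.94 over the members, and -0.66 and -0.68 over all genes. At 2 and 8 h edgeR called 0 members in either difference. At an unadjusted p under 0.05, 3 were lower and 2 higher for RBBP5–FKBP and 0 for dKO at 2 h. At 8 h 0 were lower and 4 and 9 were higher for RBBP5–FKBP and dKO, where the medians were 0.59 and 0.80, and DESeq2 called 0. Without the DPY30–mAID 8 h replicate 3 these medians were 0.32 and 0.49 and edgeR called 0, whereas without replicate 1 of that group 7 members were higher in the dKO difference. Without the DPY30–mAID 24 h replicate 3 the first count was 3. The second was 0 without any 1 of the 4 dKO libraries of 0 and 24 h, and 1 without the DPY30–mAID 0 h replicate 2 or 3 or the 24 h replicate 1 or 2.

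Retinoic acid is a morphogen that drives mES cells out of pluripotency. Over the days in RA many members changed against 0 h, as did large shares of all genes, which are given below. RA, the removal of LIF and time in culture cannot be told apart here. The summed level of the members rose up to day 1 and was below the starting level at day 4, while single members differed in their course. The summed level in DMSO was 8168 and 8030.2 CPM at 0 h, 8623 and 8939 CPM at 8 h, 9096 and 9067 CPM at day 1, 7569.98 and 7629.7 CPM at day 2, 5721 and 5909.6 CPM at day 4 and 5343 CPM in the 1 library of day 6. Over the same time the summed level of the 8 mES cell markers fell from 6940.1 and 7144 CPM at 0 h to 3382 and 3397 CPM at day 4 and 1742 CPM at day 6. The summed level of the primitive endoderm markers Gata4, Gata6 and Sox17 rose from 3.14 and 5.11 CPM to 394 and 396 CPM at day 4 and 742 CPM at day 6. Marker levels thus changed over the same days, and their part in the members' levels was not tested.

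In DMSO, 73 members were tested against 0 h among 11415 genes. At 8 h 10 were higher and 1 lower, beside 8.94% and 9.4% of genes, and DESeq2 called 6 and 1. At day 1 30 were higher and 10 lower, beside 27.9% and 23.9%, and at day 2 8 were higher and 18 lower, beside 25.4% and 22.6%. At day 4 0 were higher and 49 lower, 16 of them by more than 1 on the log2 scale, beside 27.8% and 26.5%, and at day 6 0 were higher and 51 lower, 23 by more than 1, beside 29.4% and 25.9%. DESeq2 called 43 and 44 members lower at day 4 and day 6 and 0 higher, 1 member was higher at day 4 with the size factors of DESeq2 in edgeR, and 1 and 0 were higher at an unadjusted p under 0.05. The medians of the members were 0.24, 0.23, -0.08, -0.60 and -0.83, where those of all genes were 0.00, 0.10, 0.06, 0.04 and 0.07. At day 4 33 of 46 large and 16 of 27 small members were lower. Without 1 library in turn 40 to 45 members were called at day 4 and 48 to 49 at day 6. The 8 h count was 4 without the 0 h replicate 2, 5 without the 8 h replicate 2 and 7 without the 0 h replicate 1. The test at day 6 rests on 1 DMSO library, which is assumed to vary like the others.

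**Figure D5:**
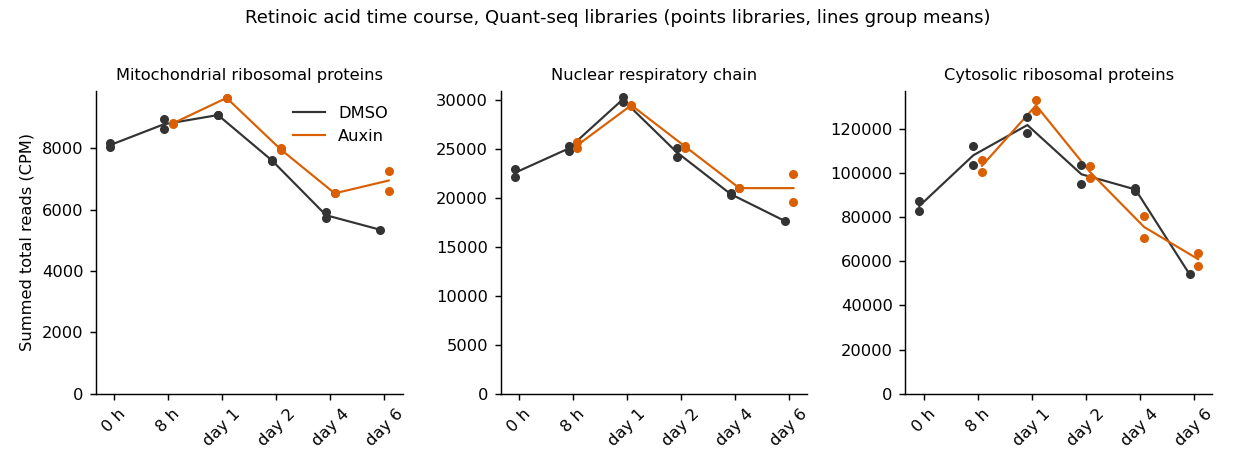
Summed total reads (y axis, CPM) of the mitochondrial ribosomal protein genes, the nuclear respiratory chain genes and the cytosolic ribosomal protein genes at each time of RA treatment (x axis, not to scale) with DMSO or auxin; points are libraries and lines join group means. The members peak at day 1, at 9096 and 9067 CPM in DMSO, and fall to 5343 CPM at day 6. The sum of the cytosolic ribosomal protein genes stays above that of 0 h up to day 4 in DMSO, although their median gene hardly moved at day 4 in the fit.

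Individual members took different courses. Values at day 6 are those of the single DMSO library. Of the 73, 43 were lower at both day 4 and day 6, 15 were higher at day 1 and lower at day 4, and 8 were lower at every time from day 1, namely Mrpl34, Mrpl35, Mrpl36, Mrpl37, Mrpl47, Mrps2, Mrps12 and Mrps18b. Of all 11415 genes tested, 20.5%, 3.6% and 9.9% had these 3 patterns. Among the tested members, Mrpl14, Mrpl41, Mrps6, Mrps18a and Mrps28 were called at no time. Mrpl33 rose the most at day 1. Its level was 120.5 and 117 CPM at 0 h, 224 and 223 CPM at 8 h, 279 and 295 CPM at day 1, 213 and 225 CPM at day 2, 123 and 125 CPM at day 4 and 144 CPM at day 6, so that it came back to its start (log2 fold change 1.28 ± 0.12 at day 1, edgeR adjusted p = 8.63e-10, and -0.12 ± 0.12 at day 4, adjusted p = 0.426).

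Mrps2 was lower from 8 h on and Mrpl36 from day 1 on. Mrps2 was at 170.2 and 176 CPM at 0 h, 120.2 and 123 CPM at 8 h, 71.6 and 65.0 CPM at day 1, 76.7 and 88.6 CPM at day 2, 106 and 109 CPM at day 4 and 119.8 CPM at day 6. It was lowest at day 1 (-1.33 ± 0.13, edgeR adjusted p = 3.7e-09). Mrpl36 went from 102 and 109 CPM to 85.7 and 74.3 CPM at 8 h, which did not pass (-0.35 ± 0.15, edgeR adjusted p = 0.108), then to 42.9 and 47.4 CPM at day 1 and 32.9 and 39.6 CPM at day 4 (-1.72 ± 0.16, edgeR adjusted p = 1.29e-09), with 65.7 CPM at day 6. Mrps10 first rose, from 98.5 and 124 CPM to 142 and 148 CPM at day 1, and then fell to 45.5 and 42.4 CPM at day 4 (-1.52 ± 0.16, edgeR adjusted p = 4.73e-09), although 83.8% of its reads had several mapping places. MRPL12 binds the mitochondrial RNA polymerase as well as the ribosome. Mrpl12 rose at 8 h, from 328 and 309 CPM to 462 and 462 CPM, and was at 209.5 and 200.5 CPM at day 4 and 137 CPM at day 6 (0.60 ± 0.11, -0.81 ± 0.11 and -1.41 ± 0.15). Mrpl18 and Mrpl34, the most abundant members here, fell by 1.07 and 0.95 on the log2 scale at day 4.

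With auxin present during RA, the summed level of the members also peaked at day 1. The summed level was 8827 and 8783 CPM at 8 h, 9645 and 9635 CPM at day 1, 7991 and 7936 CPM at day 2, 6525 and 6534 CPM at day 4 and 6621 and 7272 CPM at day 6. The auxin libraries thus lay above those in DMSO from day 1 on, and both auxin libraries of day 6 lay above those of day 4, whereas the DMSO library of day 6 lay below those of day 4. Per member, edgeR and DESeq2 called 0 at 8 h (6 lower and 1 higher at an unadjusted p under 0.05). At day 1, 2, 4 and 6 there were 1, 2, 2 and 1 lower and 2, 3, 4 and 9 higher members, or 3, 5, 6 and 10 in all, beside 7.01%, 13.4%, 18.6% and 18.8% of all genes in either direction. With reads of several mapping places removed, 1, 3 and 2 members were called at day 1, 2 and 4, and DESeq2 called 3 at day 2. These shares are under the background. The mES cell markers (3382 and 3397 CPM in DMSO, 2163 and 2214 CPM with auxin at day 4) and primitive endoderm markers (394 and 396 against 259 CPM in both) differed too, as did the summed levels of the RA response (429 to 455 against 692 to 695 CPM), fibroblast (5.60 to 11.3 against 31.4 to 31.6 CPM) and two-cell-like markers (2.80 to 3.15 against 43.4 to 51.0 CPM). At day 6 the mES cell markers were at 1742 CPM in DMSO and 1869 to 1903 CPM with auxin, those of primitive endoderm at 742 against 199 to 289 CPM and those of the RA response at 608 against 523 to 669 CPM. Their part was not tested. The call counts rest on single libraries. At day 1 they were 0 or 1 without any 1 of the 4 libraries, at day 2 they were 1 without the DMSO replicate 2 and 2 without the auxin replicate 2. At day 4 they were 2 without either DMSO library and 3 without the auxin replicate 1, and at day 6 they were 18 without the auxin replicate 1.

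At day 6 the comparison sets the auxin libraries against the single DMSO library, assumed to vary like the others, so its SE and p rest on the spread in the other groups. Mrpl9 differed most, at 164 and 149 CPM with auxin and 60.4 and 48.5 CPM in DMSO at day 4 (1.31 ± 0.16, edgeR adjusted p = 1.62e-06), and by 0.75 ± 0.15 at day 2 and 1.45 ± 0.22 at day 6. For Mrpl9, 77.2% of reads had several mapping places. With such reads removed the differences were -0.051, 0.39 and 0.35 at day 2, 4 and 6, with adjusted p values in edgeR of 0.96, 0.52 and 0.70. Mrps21, nearly all of whose reads are of this kind, was lower at day 1, 2, 4 and 6 (-0.46, -0.70, -0.54 and -0.53). Mrpl43 was higher at day 2 (0.49 ± 0.12), day 4 (0.42 ± 0.12) and day 6 (0.69 ± 0.15, edgeR adjusted p = 0.00147), at 309 and 287 CPM against 161 CPM at day 6. Mrpl37 was higher at day 6, at 125 and 191 CPM against 65.2 CPM (1.08 ± 0.22, edgeR adjusted p = 0.000899). Mrps2 was at 166 and 173 CPM with auxin and 106 and 109 CPM in DMSO at day 4 (0.45 ± 0.12, edgeR adjusted p = 0.0119), and this call was lost without the auxin replicate 2 or either DMSO library.

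Other genes of the mitochondrial translation system were called in both directions. In total reads of DPY30–mAID cells at 24 h, the mitoribosome proteins with other names gave 2 of 5 higher, Chchd1 (0.81) and Dap3 (0.37). Of 10 translation factors 1 was higher, Mtfmt (1.98), which formylates the initiator methionyl-tRNA, and 1 lower, the elongation factor gene Gfm1 (-0.60). Of 23 assembly and RNA factors 3 were higher, Rmnd1 (2.01), the GTPase gene Mtg1 (0.84) and Malsu1 (0.80), and 3 were lower, Ybey (-1.07), the rRNA methyltransferase gene Mrm1 (-1.02) and Rbfa (-0.53). Of 3 genes of mitochondrial transcription 1 was higher, the initiation factor gene Tfb2m (0.94). Of 8 nuclear regulators 2 were lower, the coactivator genes Pprc1 (-1.56) and Ppargc1b (-1.08), and 0 higher. Of all genes 15.9% were higher and 17.1% lower. In RA with DMSO at day 4, 6 of 11 translation factors, 11 of 23 assembly factors, 2 of 5 other mitoribosome proteins, 1 of 3 transcription genes and 5 of 8 regulators were lower, and 0 were higher, beside 26.5% and 27.8% of all genes. At day 1 7 of the 8 regulators were already lower.

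The 2 larger groups most like the members rose with them in DPY30–mAID cells at 24 h. The cytosolic ribosomal protein genes had 48 of 67 higher and 3 lower (median 0.37), and the nuclear respiratory chain genes 47 of 72 higher and 1 lower (median 0.54). The differences from the other lines were also lower for 18 of 67 and 36 of 69 cytosolic ribosomal protein genes and for 24 and 41 of 72 respiratory chain genes, in RBBP5–FKBP and dKO cells in turn. The members are thus not the only group to do so. In RA the calls were counted separately in each group. At day 4 49 of 73 members were lower, with a median of -0.60, as were 32 of 74 respiratory chain genes (median -0.26) and 10 of 68 cytosolic ribosomal protein genes (median -0.03). At day 6 the cytosolic ribosomal protein genes were lower for 67 of 68, with a median of -0.87. Auxin against DMSO at day 4 lowered 62 of 68 cytosolic ribosomal protein genes (median -0.52) and 19 of 74 respiratory chain genes, and 2 of 73 members. The differences between the groups were not tested.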

How the data were processed

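Total and T>C reads per 3′ UTR interval were counted by the authors with SlamDunk 0.3.4 on GRCm38, and these deposited counts were summed per gene. The mean number of conversions per T>C read was below 2 in each library, so reads with 1 conversion are included. The methods name HISAT2 2.2.1 and featureCounts for Quant-seq, whereas its deposited tables have SlamDunk headers. Rates and CPM given in the files were not tested. Names and positions of genes are those of GENCODE vM21, and promoters those of RefSeq.

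Genes reaching a mean of 10 reads (for T>C results, T>C reads) in at least 1 group were tested with edgeR 4.0.16 (quasi-likelihood, Benjamini-Hochberg adjusted p below 0.05), in 1 fit per line and 1 over RA. TMM factors came from total reads, also for T>C reads. DESeq2 1.42.0 and, for shares, limma 3.58.1 on log2 odds with a prior count of 0.5 were alternatives. The rule for named members took the 6 with the highest level at 0 h, the 3 with the highest and lowest T>C share at 0 h, up to 4 called members of each direction by p in each comparison, and up to 4 by change at day 4 of RA. Other members named were singled out after their values were seen. The members and lists were chosen with earlier results of these data known. Each test was checked on simulated data.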

Additional observations from a re-analysis of the deposited data

Results flagged for a closer look

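The effect of 24 h of treatment differed between lines by an interaction test in edgeR (adjusted p below 0.05). In T>C reads, RBBP5–FKBP minus DPY30–mAID differed for 5 members, Mrps23 (-3.52), Mrps22 (-2.76), Mrpl20 (-2.32), Mrpl45 (-2.16) and Mrpl2 (2.83), and Kdm5a/b dKO minus DPY30–mAID for 2, Mrpl20 (-2.07) and Mrpl18 (-1.46), all on the log2 scale. The 4 lower and 1 higher of 64 members stand beside 8.21% and 0.281% of all genes, and the 2 of 67 beside 2.38%, so the lower counts are near or under the share of all genes. In total reads the differences numbered 15 and 22 of 73, all lower, beside 6.06% and 7.81% of all genes. For RBBP5–FKBP they included Mrpl18 (-1.17), Mrps23 (-1.32), Mrpl33 (-1.27) and Mrpl38 (-1.52), and for the dKO cells Mrpl18 (-0.95), Mrps17 (-1.09), Mrpl32 (-0.98) and Mrpl34 (-0.73).
The lines also differ in the clone, RBBP5–FKBP cells in the agent and dKO cells in depth. Reads of the dKO cells also covered fewer T positions, as given for 0 h. The share of T>C reads over all genes at 0 h was 15.8% in DPY30–mAID, 9.56% in RBBP5–FKBP and 4.98% in dKO cells. These cannot be told apart from the deleted or degraded protein. Both differences use the same DPY30–mAID libraries.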

How the results depend on the processing

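Counts of members called are given. With TMM factors from T>C reads, T>C counts were 2 (DPY30–mAID 8 h), 6 (24 h, all higher), 1 (RBBP5–FKBP 24 h), and 2 and 3 (dKO 24 and 48 h), and differences between lines at 24 h were 2 and 0. Reads on more than 1 place removed left 1, 3 and 2 for auxin against DMSO at day 1, 2 and 4, and Mrpl9 at day 2 became -0.051. DESeq2 gave 14 and 13 in T>C reads (DPY30–mAID 8 h, dKO 24 h), 8 and 9 for the T>C differences, 2 for the total difference of dKO cells at 8 h, 7 for RA at 8 h and 3 for auxin at day 2. A mean of at least 1 read gave 6 (total, RBBP5–FKBP 24 h), 4 and 1 (share, DPY30–mAID 8 h and RBBP5–FKBP 2 h) and 0 (T>C difference, dKO). limma on shares gave 0 and 3, and with a replicate block 0, 1 and 16 (DPY30–mAID 8 h, RBBP5–FKBP 24 h, dKO 24 h).
Leaving out 1 library gave, in T>C reads, 3 to 20 (DPY30–mAID 8 h), 3 to 7 (RBBP5–FKBP 24 h) and 13 to 23 (dKO 24 h). In total reads it gave 2 to 6, 2 to 9 and 0 to 2 (DPY30–mAID 8 h, RBBP5–FKBP 8 and 24 h) and 0 to 3, 1 to 7 and 6 to 14 (dKO 2, 24 and 48 h). Shares gave 0 to 20, 1 to 5 and 12 to 21. T>C differences gave 3 to 7 (RBBP5–FKBP 24 h), 0 to 7 and 0 to 2 (dKO 8 and 24 h), and total differences 7 to 17 and 13 to 32. RA at 8 h gave 4 to 9, and auxin against DMSO 0 to 1, 1 to 6, 2 to 6 and 8 to 18 (day 1, 2, 4 and 6). Where an arm held 2 libraries, the remaining one was assumed to vary like the others, and the single DMSO library of day 6 could not be left out. The causes were not tested.
The labels do not say whether replicate numbers pair the libraries. Deviations of same-numbered libraries correlated between -0.20 and 0.36, with a median of 0.027 for total reads in dKO cells and -0.00058 in RA. A pairing of some groups thus remains possible. With a replicate block in edgeR the counts were 32 (DPY30–mAID 24 h total), 7 and 42 (T>C, DPY30–mAID 8 h and dKO 48 h) and 48 (RA day 4), within 1.5 times the counts without it. The total-read differences between lines were added after seeing the data. Of the 74 members 62, 50 and 62 had enough T>C reads for a test in DPY30–mAID, RBBP5–FKBP and dKO cells.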
